A study of Mus musculus with 12 samples.

Results

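The endothelial and blood-brain barrier genes described here are Flt1, Kdr, Tie1, Tek, Cdh5, Pecam1, Cldn5, Slco1a4, Ushbp1 and Abcb1a, 10 of the 78334 gene IDs counted in bulk RNA of mouse hypothalamus. They were found by matching each symbol to 1 Ensembl ID, and all 10 passed the filter on low counts that left 25562 genes. The set was chosen by reference to earlier results from these 12 libraries, and the values that decided the choice are not recorded. The levels and log2 changes of the 10 genes are therefore given as a description, with no p-value. How many of them the main fit and the other test programs called is printed beside the share of all genes called. Counts from altered fits, such as those with left-out libraries, are printed without that share. Nothing is read from any of these counts in the 5 comparisons. All mice were male C57BL/6. The curcumin group (n = 3) had received streptozotocin, a toxin of insulin-producing beta cells, at 70 mg/kg on postnatal day 2, a high-fat diet with 60% of its energy as fat for 8 weeks from 3 weeks of age, and curcumin, a turmeric polyphenol, at 50 mg/kg by daily gavage for 28 days. The garlic group (n = 2) had the same injection and diet and received aged garlic extract at 200 mg/kg. The diabetes group (n = 4) had the injection and diet with vehicle, and the control group (n = 3) had standard diet with vehicle. No injection is given for control mice, so injection and diet cannot be told apart against control. The start of treatment is given as week 7 of the diet in the protocol and as after 11 weeks in the design text, and this is unresolved. Neither a separate animal for each library nor the age at collection is given in the sources used here.

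Brain capillaries are lined by endothelial cells that form a barrier between blood and neural tissue. Tight and adherens junctions seal the gaps between the cells, transporters carry chosen molecules across them, and efflux pumps return many others to the blood. Vascular endothelial growth factor (VEGF) and the angiopoietins act on receptor tyrosine kinases of these cells to control vessel growth and stability, and Wnt signals from neural cells maintain the barrier. Parts of the hypothalamus, such as the median eminence, instead have fenestrated vessels that let hormones pass. In bulk RNA, a lower level can come from fewer endothelial cells or from less RNA per cell, and these cannot be told apart.

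Levels are in CPM, the read count of a gene scaled to library size, with totals corrected for composition by TMM. Total counts ran from 12950017 to 30271706 per library. At the lowest of these depths, between 20133 and 22515 genes were detected in diabetes libraries, 25766 to 33157 in control libraries, 33125 and 34719 in garlic libraries, and 20917, 29126 and 22337 in curcumin replicates 1 to 3. A pair of libraries stood apart from the rest in hypothalamic, midbrain, pituitary, blood cell, fibroblast and meningeal genes. Curcumin replicate 2 held 355.1 CPM summed over 26 hypothalamic genes, with 6 of them at 0 (Hcrt, Kiss1, Six6, Fezf1, Hmx2 and Hmx3), against 869.4 to 5459 CPM in the other 11 libraries, and 248.8 CPM over 14 midbrain genes, against 48.1 to 144.2 CPM. Diabetes replicate 4 held 1969 CPM over 11 pituitary genes, 1758 CPM over 9 blood cell genes and 384.3 CPM over 13 fibroblast and meningeal genes. The other 11 libraries held 8.64 to 360.4, 92.5 to 504.0 and 55.6 to 185.5 CPM of these lists. In summed CPM of the hypothalamic and pituitary lists, the diabetes group also stood apart as a whole. Its hypothalamic sum was 2833 to 5459 CPM, against 355.1 to 1950 CPM in curcumin, 1265 to 2798 CPM in garlic and 1878 to 2629 CPM in control libraries. Its pituitary sum was 187.4 to 1969 CPM, against 8.64 to 94.9 CPM in curcumin, 26.1 to 110.2 CPM in garlic and 71.6 to 94.8 CPM in control libraries, with 2 to 7 of the 11 genes at 0 in each library. Pomc belongs to both lists, and Gh, Prl, Lhb, Fshb and Pou1f1 were at 0 in diabetes replicates 1, 2 and 3. The median deviation of the pituitary genes from their log2 averages was -0.24 to 4.21 in diabetes and -1.48 to 0.48 in control libraries, which overlapped. Garlic libraries, at 0.27 to 0.36, also lay inside the diabetes range. For the hypothalamic genes the median deviation was 0.49 to 0.97 in diabetes libraries. That range overlapped control (0.22 to 0.58) and garlic (0.001 to 0.755) libraries. Curcumin libraries lay below diabetes for both lists, at -1.87 to -0.63 and -5.09 to 0.36. Curcumin replicate 2 and diabetes replicate 4 were also highest for 10 smooth muscle genes, at 136.4 and 126.0 CPM, against 34.8 to 70.0 CPM elsewhere. Control replicate 3 was low in 11 astrocyte genes, at 1277 CPM, against 3023 to 4605 CPM in the other 11 libraries. What part these differences have in the endothelial levels was not tested. Medians of the 10 genes and of the gene lists are also given below without curcumin replicate 2 and diabetes replicate 4. Control replicate 3 was kept in those fits.

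Over the 12 libraries, the level per kilobase of the longest annotated transcript was highest for Cldn5 at 24.1 ± 26.7 CPM per kilobase (SD, n = 12), and Slco1a4 followed at 7.11 ± 4.41 CPM per kilobase. Cldn5 was above Slco1a4, and Slco1a4 above Flt1, in all 12 libraries. Flt1 averaged 4.42 ± 3.21 CPM per kilobase, Pecam1 3.78 ± 2.32 and Abcb1a 3.43 ± 2.14. Each of these was above the next gene in 8, 8 and 11 of 12 libraries, so the order of Flt1, Pecam1 and Abcb1a varied from library to library. Tie1 at 2.02 ± 1.29, Tek at 1.89 ± 1.09, Ushbp1 at 1.85 ± 1.20 and Cdh5 at 1.73 ± 1.16 CPM per kilobase did not differ beyond their spread. Kdr was lowest, at 1.07 ± 0.667 CPM per kilobase, and Cdh5 was above it in 10 of 12 libraries.

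The 4 receptor genes lie on chromosomes 4 and 5, and the bases before their starts are shown because these are the signalling receptors of the set. RefSeq's promoter table on GRCm38.p6 held 8 of the 10 genes, and Cdh5 and Pecam1 were not among them. The counts were made on GRCm39, so the positions belong to the RefSeq table only. Each line gives the 250 bases before the start, 5′ to 3′ on the gene's strand, for Flt1 at chr5:147726012-147726261 (minus strand), Kdr at chr5:75978456-75978705 (minus), Tie1 at chr4:118489850-118490099 (minus) and Tek at chr4:94739039-94739288 (plus). Capitals mark CAGGAA or CCGGAA on either strand, cores that ETS-family transcription factors bind, and TATAAA on either strand.
Flt1: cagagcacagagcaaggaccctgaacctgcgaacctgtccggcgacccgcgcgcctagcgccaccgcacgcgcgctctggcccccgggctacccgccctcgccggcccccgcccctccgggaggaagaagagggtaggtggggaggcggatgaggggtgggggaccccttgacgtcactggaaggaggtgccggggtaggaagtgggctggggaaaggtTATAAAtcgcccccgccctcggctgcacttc
Kdr: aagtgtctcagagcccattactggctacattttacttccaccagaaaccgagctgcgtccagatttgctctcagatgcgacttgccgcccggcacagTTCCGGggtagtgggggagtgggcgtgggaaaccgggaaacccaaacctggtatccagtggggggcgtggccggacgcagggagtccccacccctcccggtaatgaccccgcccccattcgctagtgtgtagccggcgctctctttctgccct
Tie1: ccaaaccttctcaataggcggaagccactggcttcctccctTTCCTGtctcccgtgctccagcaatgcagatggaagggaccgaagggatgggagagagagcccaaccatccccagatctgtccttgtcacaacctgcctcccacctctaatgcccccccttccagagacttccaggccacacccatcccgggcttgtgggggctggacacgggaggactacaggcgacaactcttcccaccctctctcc
Tek: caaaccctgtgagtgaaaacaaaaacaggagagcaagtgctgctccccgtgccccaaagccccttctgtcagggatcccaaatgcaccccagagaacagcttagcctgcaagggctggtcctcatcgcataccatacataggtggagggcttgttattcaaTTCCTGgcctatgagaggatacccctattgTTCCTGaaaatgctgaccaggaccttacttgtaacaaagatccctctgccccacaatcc
Flt1 had TATAAA starting 31 bases before its start and Kdr had CCGGAA, on the opposite strand, from 153 bases before its start. CAGGAA stood 2 times in the Tek stretch and 1 time in that of Tie1, each on the opposite strand. These letters were found in 3 of 8 promoters for CAGGAA (Tek, Tie1 and Ushbp1), against 25.7% of 32851 promoters of the same length, and in 1 of 8 for CCGGAA, against 12.0%. TATAAA was found in 1 of 8 (Flt1), against 12.4%. TGTTTAC, a forkhead core, was in 1 of 8 (Abcb1a), against 3.17% of all promoters. ACAATG, a SOX core, was in 1 of 8 (Slco1a4), against 10.7%. No stretch of the 8 held AGATAA, which endothelial zinc finger factors bind, against 9.99% of all promoters. No match overlapped a match of another motif, and a match describes letters in this window only. The composition of the stretches ranged from 39.2% G or C for Slco1a4 to 70.4% for Flt1.

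Flt1 (ENSMUSG00000029648), the VEGF receptor VEGFR1 that binds VEGF tightly and limits signalling, had 61.0, 66.0 and 21.9 CPM in curcumin libraries. It had 69.2 and 29.0 CPM in garlic libraries, 13.3, 11.5, 5.31 and 23.9 CPM in diabetes libraries, and 22.7, 16.5 and 25.8 CPM in control libraries. Curcumin replicate 3 fell within the diabetes range, whereas both garlic libraries were above every diabetes and control library. The fitted log2 change was 1.87 ± 0.43 (SE) for curcumin over diabetes and 1.86 ± 0.47 for garlic over diabetes. It was -0.68 ± 0.43 for diabetes over control, with overlapping groups.

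Kdr (ENSMUSG00000062960), the main signalling receptor for VEGF (VEGFR2), had 8.62, 15.4 and 6.44 CPM in curcumin libraries and 7.98 and 8.63 CPM in garlic libraries. Diabetes libraries held 0, 4.51, 1.22 and 5.07 CPM, and control libraries 6.08, 7.46 and 4.62 CPM. Every treated library exceeded every diabetes library, and diabetes overlapped control only at the level of diabetes replicate 4 and control replicate 3. Diabetes replicate 1 had no Kdr read, which allows up to 0.106 CPM (3 counts, counting error only). The log2 change was 1.91 ± 0.86 for curcumin over diabetes, 1.62 ± 0.94 for garlic over diabetes and -1.16 ± 0.86 for diabetes over control. Per transcript length, Flt1 stood 1.90 to 7.45 times above Kdr in the 11 libraries with Kdr reads, with a median of 3.67.

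Tie1 (ENSMUSG00000033191), an orphan receptor that works together with Tek, had 17.0, 21.3 and 9.71 CPM in curcumin libraries and 10.9 and 7.95 CPM in garlic libraries. Its levels were 4.06, 6.31, 4.18 and 6.51 CPM in diabetes libraries and 4.35, 5.53 and 4.99 CPM in control libraries. Both treated groups lay above all diabetes and control libraries, and diabetes and control overlapped. The log2 change was 1.60 ± 0.42 for curcumin over diabetes, 0.84 ± 0.46 for garlic over diabetes and 0.09 ± 0.42 for diabetes over control.

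Tek (ENSMUSG00000006386), the angiopoietin receptor TIE2, had 13.3, 16.2 and 8.67 CPM in curcumin libraries and 13.7 and 10.6 CPM in garlic libraries. Diabetes libraries were spread widely, at 4.10, 6.65, 1.31 and 15.9 CPM, and control libraries had 4.64, 3.43 and 7.21 CPM. All treated libraries were above control, and diabetes replicate 4 was nearly as high as the highest curcumin library. Curcumin over diabetes gave a log2 change of 0.86 ± 0.58, garlic over diabetes 0.79 ± 0.65 and diabetes over control 0.46 ± 0.60. Without the pair of libraries that stood apart, the first 2 values were 1.43 and 1.61, and the third was -0.35. Per transcript length, Tie1 over Tek ran from 0.450 in diabetes replicate 4 to 3.52 in diabetes replicate 3.

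**Figure D1:**
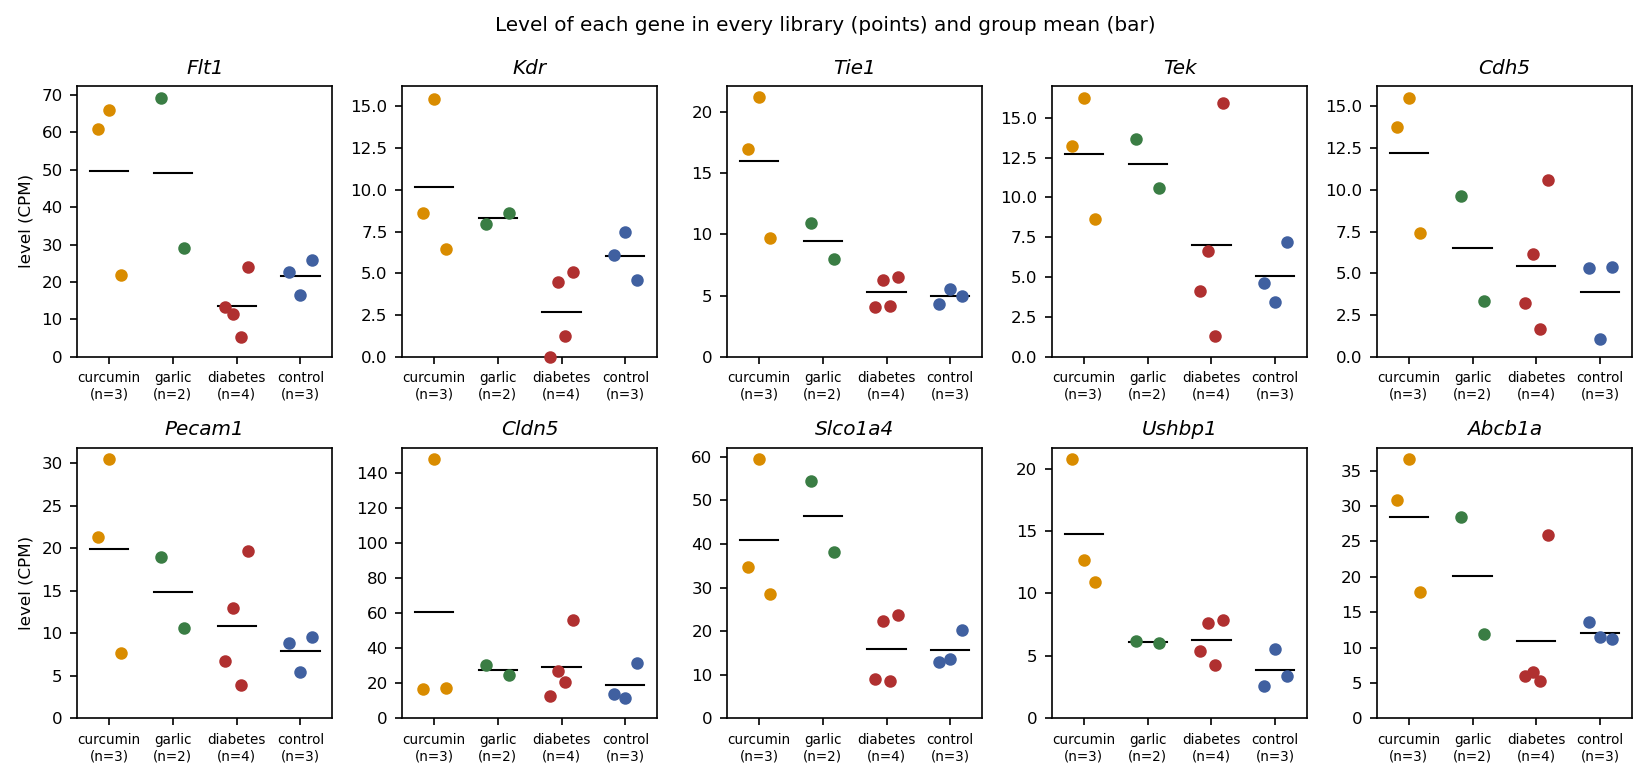
Level of each of the 10 genes in CPM (vertical axis, linear, a scale of its own in each panel) in curcumin, garlic, diabetes and control libraries, as 1 point per library with a bar at the group mean. Kdr, Tie1 and Slco1a4 show treated points above all diabetes points, while Cldn5 shows 1 curcumin library at 147.8 CPM far above the rest.

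Cdh5 (ENSMUSG00000031871) encodes VE-cadherin, the adhesion protein of endothelial adherens junctions. Its level was 13.7, 15.5 and 7.38 CPM in curcumin libraries, 9.61 and 3.37 CPM in garlic libraries, 3.25, 6.14, 1.65 and 10.6 CPM in diabetes libraries and 5.32, 1.05 and 5.35 CPM in control libraries. All 3 curcumin libraries were above control, and every other pair of groups overlapped. Cdh5 averaged 12.2 ± 4.26 CPM with curcumin (SD, n = 3) and 6.49 ± 4.42 CPM with garlic (n = 2), against 5.41 ± 3.92 CPM in diabetes (n = 4).

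Pecam1 (ENSMUSG00000020717), an adhesion molecule at contacts between endothelial cells that platelets and leukocytes also carry, had 21.4, 30.5 and 7.73 CPM in curcumin libraries and 19.0 and 10.6 CPM in garlic libraries. Diabetes libraries had 6.68, 13.0, 3.92 and 19.7 CPM and control libraries 8.82, 5.47 and 9.57 CPM. Both garlic libraries were above control, and curcumin overlapped diabetes and control. Diabetes replicate 4, the library highest in blood cell genes, had the highest Pecam1 of its group, and the part of those cells in it was not tested. The log2 change for curcumin over diabetes was 0.87 ± 0.50, and without both libraries that stood apart it was 0.88.

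Cldn5 (ENSMUSG00000041378), the dominant tight junction claudin of brain endothelium, had 16.6, 147.8 and 17.2 CPM in curcumin libraries, 30.5 and 24.9 CPM in garlic libraries, 12.7, 27.0, 20.5 and 56.1 CPM in diabetes libraries and 13.8, 11.4 and 31.4 CPM in control libraries. The 2 highest values were those of the pair of libraries that stood apart, and all groups overlapped. Its log2 change for curcumin over diabetes was 1.06 ± 0.61, but -0.75 without curcumin replicate 2 and -0.24 without both libraries. For curcumin over control the value was 1.68 ± 0.68, and -0.19 without curcumin replicate 2. The direction of Cldn5 under curcumin thus turned when that 1 library was left out. For curcumin over diabetes it also turned, to -0.49, with all libraries kept and the number of detected genes as a covariate. Per transcript length, Cldn5 over Cdh5 ran from 3.42 in curcumin replicate 1 to 34.9 in diabetes replicate 3.

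Slco1a4 (ENSMUSG00000030237) encodes an organic anion transporter of rodent brain capillaries. Its level was 34.8, 59.6 and 28.5 CPM in curcumin libraries, 54.5 and 38.2 CPM in garlic libraries, 9.04, 22.3, 8.53 and 23.6 CPM in diabetes libraries and 13.0, 13.5 and 20.3 CPM in control libraries. Both treated groups were above every diabetes and control library, while diabetes and control overlapped. The log2 change was 1.37 ± 0.37 for curcumin over diabetes, 1.55 ± 0.40 for garlic over diabetes and 0.02 ± 0.37 for diabetes over control. Slco1a4 was the member with the smallest standard error in each of these comparisons. Its close paralogs were scarce, as Slco1a5 averaged 0.210 CPM and Slco1a6 and Slco1a1 did not pass the filter. How reads that map to several places were counted is not given, so levels of such paralogs are uncertain.

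Abcb1a (ENSMUSG00000040584) encodes P-glycoprotein, the efflux pump that returns many drugs to the blood. It had 30.9, 36.7 and 17.8 CPM in curcumin libraries and 28.4 and 12.0 CPM in garlic libraries. In diabetes libraries it had 5.97, 6.48, 5.22 and 25.9 CPM, and in control libraries 13.6, 11.4 and 11.2 CPM. Curcumin was above control without overlap, whereas diabetes replicate 4 lay inside the curcumin range, far above the other 3 diabetes libraries. The log2 change was 1.38 ± 0.49 for curcumin over diabetes, and 2.27 without diabetes replicate 4. It was 0.89 ± 0.54 for garlic over diabetes, with 1.77 without diabetes replicate 4 and 0.12 without garlic replicate 1.

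Abcb1b, the paralog of Abcb1a that is less tied to brain endothelium, averaged 3.30 ± 1.28 CPM in curcumin, 3.95 ± 0.744 CPM in garlic, 3.44 ± 0.957 CPM in diabetes and 3.14 ± 0.213 CPM in control libraries. Per transcript length, Abcb1a over Abcb1b was 6.95, 7.49 and 8.36 in curcumin libraries, 5.47 and 3.01 in garlic libraries, 2.47, 1.32, 1.29 and 5.61 in diabetes libraries and 3.75, 3.37 and 2.89 in control libraries. All 3 curcumin ratios were above those of every other library. Any reads shared by these paralogs could be split between them, which makes the ratio uncertain.

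Ushbp1 (ENSMUSG00000034911) encodes a protein named for its binding to harmonin, the product of the Usher syndrome gene Ush1c. Its level was 20.8, 12.7 and 11.0 CPM in curcumin libraries, 6.16 and 6.06 CPM in garlic libraries, 5.37, 7.66, 4.26 and 7.86 CPM in diabetes libraries and 2.58, 5.58 and 3.40 CPM in control libraries. The curcumin libraries were the 3 highest of the 12, and the garlic libraries lay inside the diabetes range. The log2 change was 1.23 ± 0.45 for curcumin over diabetes, -0.04 ± 0.51 for garlic over diabetes and 0.71 ± 0.46 for diabetes over control. Both treated comparisons share the diabetes libraries, and the difference between treatments was not tested.

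**Figure D2:**
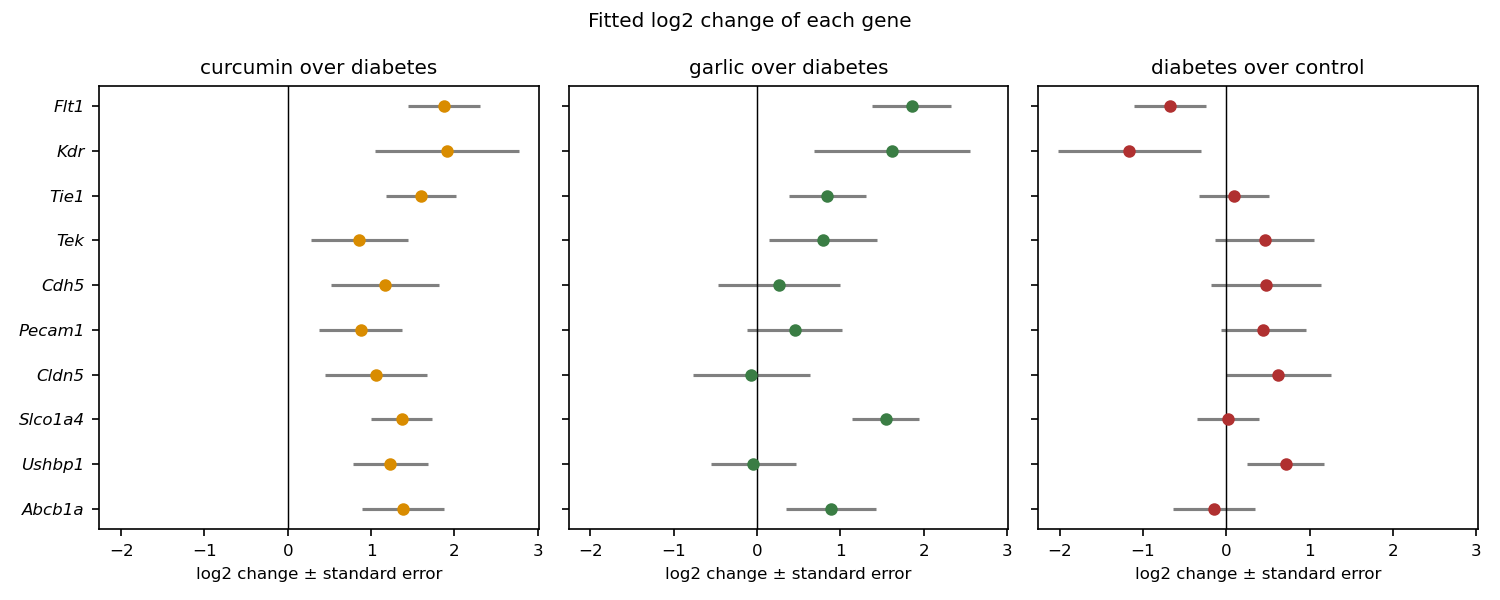
Log2 change of each of the 10 genes (horizontal axis) with its standard error as a bar, for curcumin over diabetes, garlic over diabetes and diabetes over control. All 10 points for curcumin over diabetes lie above 0, from 0.86 for Tek to 1.91 for Kdr, whereas those for diabetes over control lie on both sides of 0.

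For curcumin against diabetes, all 10 genes had a positive log2 change, and the median was 1.30, against 0.07 over all 25562 genes. None of the 10 passed an adjusted p of 0.05 in edgeR's quasi-likelihood test with Benjamini-Hochberg adjustment, where 0.09% of all genes were called. At an unadjusted p under 0.05, 6 were higher (Flt1, Kdr, Tie1, Slco1a4, Ushbp1 and Abcb1a), against 10.5% of all genes. The groups did not overlap for 4 (Kdr, Tie1, Slco1a4 and Ushbp1), against 5.43% of all genes with curcumin higher. DESeq2 called 3 higher (Flt1, Tie1 and Slco1a4), against 1.71% of genes with an adjusted p, and limma-voom called 0, against 0.0313%. Without the pair of libraries that stood apart, edgeR called 2 (Flt1 and Abcb1a), and the median was 1.45. Leaving out curcumin replicate 2 alone gave 1 call (Flt1). The share of all genes called is not printed for these fits with left-out libraries. With the number of detected genes as a covariate, 0 were called and the median was 1.18. Markers of other tissue differed between the same groups. The median log2 change was -3.48 over 8 pituitary genes, -1.58 over 7 blood cell genes and -1.18 over 25 hypothalamic genes, of which 23 were lower with curcumin, and 2.23 over 13 midbrain genes. Without the pair of libraries that stood apart, these medians were -1.42, -1.72, -0.72 and -0.10. Their part in the levels of the 10 genes was not tested.

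For garlic against diabetes, 8 of the 10 genes had a positive log2 change and the exceptions were Cldn5 at -0.07 ± 0.70 and Ushbp1 at -0.04 ± 0.51. The median was 0.81, against 0.07 over all genes. edgeR called 0 of the 10 at an adjusted p of 0.05, and 0.0% of all genes. At an unadjusted p under 0.05, 2 were higher (Flt1 and Slco1a4), against 6.9% of all genes, and the groups did not overlap for 4 (Flt1, Kdr, Tie1 and Slco1a4), against 13.2%. DESeq2 gave an adjusted p for 3 of the 10 and called 2 (Flt1 and Slco1a4), against 0.37%, and limma-voom called 1 (Slco1a4), against 0.274%. The median depended on single libraries. It was 0.35 without garlic replicate 1 and 1.27 without diabetes replicate 4. With the number of detected genes as a covariate it was 0.47, and without both libraries that stood apart 1.30. Leaving out either garlic replicate left 1 garlic library, so counts of calls are not given for those fits. Beside this, the median log2 change for garlic over diabetes was -3.56 over the pituitary genes, -2.44 over the blood cell genes and -0.55 over the hypothalamic genes, and -0.62, -1.46 and -0.45 without both libraries. Their part was not tested.

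For diabetes against control, 7 of the 10 genes had a positive and 3 a negative log2 change (Flt1, Kdr and Abcb1a), with a median of 0.27, against -0.07 over all genes. The pituitary and blood cell lists had medians of 3.34 and 2.27, or 0.32 and 1.49 without both libraries that stood apart, and their part was not tested. edgeR called 0 of the 10 and 0.0156% of all genes in either direction. The 10 genes also gave 0 at an unadjusted p under 0.05, where 12.3% of all genes passed, and 0 without overlap of the groups, against 14.7%. DESeq2 gave an adjusted p for 4 of the 10 and called 0, against 5.18%, and limma-voom called 0, against 4.6%. The sign of the median turned with 1 library, as it was -0.16 without diabetes replicate 4 and -0.18 without both libraries that stood apart. The 10 genes thus gave no stable direction in diabetes, and a p that misses the threshold does not show equal levels.

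For the treated groups against control, which share the control libraries, the median log2 change was 1.36 for curcumin and 0.82 for garlic, against 0.00 for both over all genes. Without both libraries that stood apart, the medians of the 10 genes were 0.996 and 0.823. edgeR called 0 of the 10 with curcumin and 0 with garlic, and 0.0% of all genes in each. At an unadjusted p under 0.05, 8 of the 10 were higher with curcumin, against 1.06%, and 2 with garlic, against 0.0782%. Without overlap, 6 were higher with curcumin (Tie1, Tek, Cdh5, Slco1a4, Ushbp1 and Abcb1a), against 2.82%, and 7 with garlic (Flt1, Kdr, Tie1, Tek, Pecam1, Slco1a4 and Ushbp1), against 6.65%. DESeq2 and limma-voom called 0 of the 10, and called 0.0% of all genes higher in both comparisons. In either direction, DESeq2 called 0.0199% of all genes for curcumin against control, all of them lower. Ushbp1 and Tie1 had log2 changes of 1.94 ± 0.50 and 1.69 ± 0.46 for curcumin over control.

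The 10 genes varied together across libraries. Their summed level was 238.0, 421.7 and 136.3 CPM in curcumin libraries, 249.9 and 151.2 CPM in garlic libraries, 64.4, 111.5, 56.1 and 195.2 CPM in diabetes libraries and 94.9, 81.4 and 123.8 CPM in control libraries. The mean deviation of the 10 from their own log2 averages was 0.95, 1.52 and 0.19 in curcumin libraries and 0.80 and 0.16 in garlic libraries. It was -1.32, -0.17, -1.39 and 0.54 in diabetes libraries and -0.43, -0.68 and -0.16 in control libraries. Diabetes libraries therefore held both the lowest 2 libraries and 1 above curcumin replicate 3 and garlic replicate 2.

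**Figure D3:**
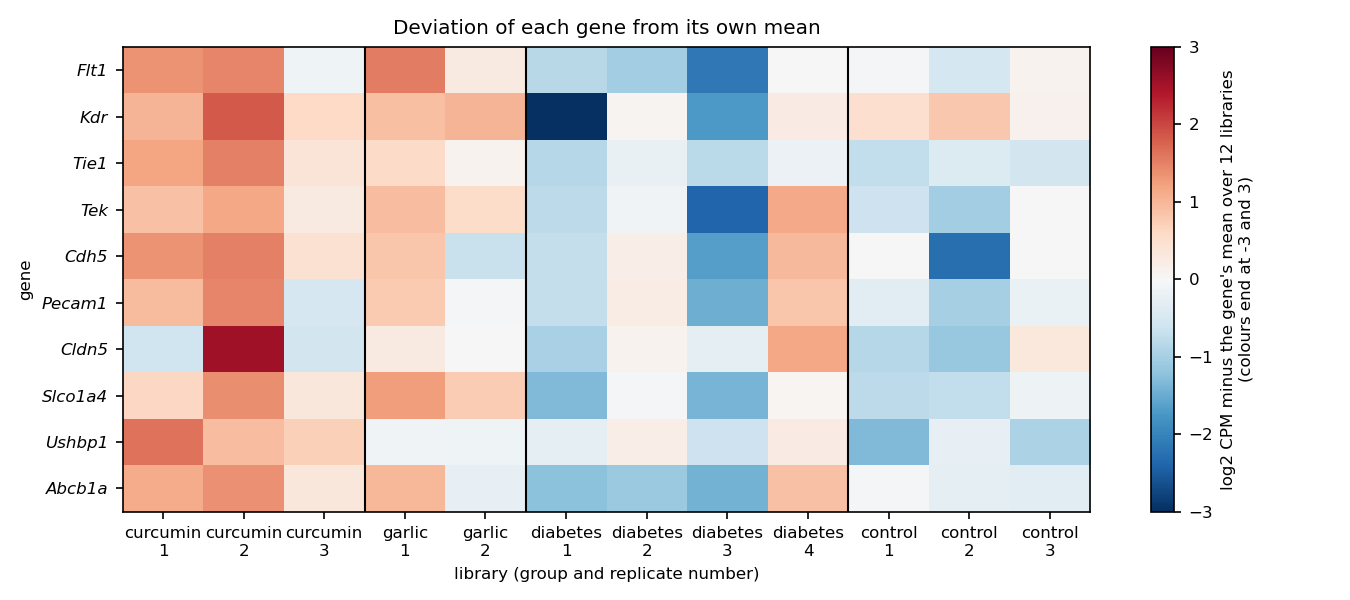
Heat map of each gene's log2 CPM minus its own mean over the 12 libraries, with the 10 genes down the page and the curcumin, garlic, diabetes and control libraries across it; red is above and blue below the gene's mean, and colours end at -3 and 3. Diabetes replicates 1 and 3, whose mean deviations were -1.32 and -1.39, are mostly blue, diabetes replicate 4 is red for Tek, Cdh5, Pecam1, Cldn5 and Abcb1a, and Cldn5 is darkest red in curcumin replicate 2.

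Across the 12 libraries, the 45 pairs among the 10 genes had a median Pearson's r of 0.71, from 0.31 to 0.91, with Cldn5 and Ushbp1 the least alike. With group means taken off, the median was 0.67, with a range from -0.01 to 0.92. Against the mean of the other 9, Slco1a4 (r = 0.93), Pecam1 (0.91), Abcb1a (0.90), Tek (0.89) and Tie1 (0.89) followed most closely, and Cldn5 (0.61), Kdr (0.61) and Ushbp1 (0.60) least. These values were taken over libraries that differed in depth and tissue makeup, and the part of those differences in them was not tested. The largest departures from the shared level were Kdr in diabetes replicate 1, at -4.14 on the log2 scale, and Cdh5 in control replicate 2, at -1.57. Cldn5 departed in both directions, by -1.54 in curcumin replicate 1 and 1.03 in curcumin replicate 2.

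Among 13787 genes ranked by Pearson's r with that mean deviation over the 12 libraries, the 10 most alike were Sox18 (0.93), Myh11 (0.93), Rgs5 (0.93), Gbp5 (0.91), Mylpf (0.90), Lgr5 (0.90), Eng (0.90), Adgrf5 (0.90), Tgfbr2 (0.89) and Ptprb (0.89), where the median over all ranked genes was 0.06. Sox18 is an endothelial transcription factor, Eng (endoglin) a co-receptor for TGF-beta, Adgrf5 an adhesion receptor and Ptprb a phosphatase that acts on Tek. Rgs5 marks pericytes and Myh11 smooth muscle, the cells around the vessel wall. They do not stand for their lists, as other pericyte genes ran from r = -0.223 (Ndufa4l2) to 0.785 (Mcam). Other smooth muscle genes ran from -0.12 (Tpm2) to 0.774 (Tagln). Gbp5 and Mylpf averaged only 1.25 and 1.03 CPM. Ptprb averaged 36.7 ± 13.9 CPM in curcumin, 26.1 ± 14.4 CPM in garlic, 9.83 ± 5.77 CPM in diabetes and 11.8 ± 1.68 CPM in control libraries. Rgs5 averaged 59.5 ± 22.5 CPM in curcumin, 67.4 ± 17.1 CPM in garlic, 33.9 ± 17.3 CPM in diabetes and 32.8 ± 7.32 CPM in control libraries. These genes were picked for their likeness and get no test.

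Of 15 VEGF and angiopoietin ligands, co-receptors and partners outside the 10 genes, 0 passed edgeR's adjusted p in any of the 5 comparisons. Their median log2 change was 0.15 for curcumin and 0.33 for garlic over diabetes, and -0.12 for diabetes over control. The medians of the 10 genes for the treated groups were higher, but those genes were chosen with results of these data known. Without both libraries that stood apart, these list medians were 0.348, 0.326 and -0.176. Vegfa, the main ligand of Flt1 and Kdr, averaged 67.4 ± 18.7 CPM in curcumin, 76.9 ± 2.65 CPM in garlic, 55.8 ± 8.86 CPM in diabetes and 87.3 ± 8.80 CPM in control libraries. All diabetes libraries were below all control libraries for Vegfa, but its log2 change of -0.64 ± 0.22 had an adjusted p of 0.292 by edgeR. Vegfb, a ligand of Flt1, went the other way, at 110.6 CPM in diabetes and 82.5 CPM in control libraries, with a log2 change of 0.42 ± 0.25 and an adjusted p of 0.546 by edgeR. Grb10, an adaptor of receptor tyrosine kinases that neurons also express, was at 148.0 CPM in diabetes and 196.8 CPM in control libraries.

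Among 15 other junction genes, 13 had a positive log2 change for curcumin over diabetes and 12 for garlic over diabetes, with medians of 0.69 and 0.41, and 0 passed edgeR's adjusted p. Without both libraries that stood apart, the medians were 0.605 and 0.475. Tjp1, the scaffold ZO-1, averaged 82.8 ± 27.1 CPM in curcumin and 67.5 ± 22.0 CPM in garlic, against 43.9 ± 5.98 CPM in diabetes and 58.6 ± 11.6 CPM in control libraries. Its log2 change for curcumin over diabetes was 0.92 ± 0.25, with groups that did not overlap and an adjusted p of 0.112 by edgeR. Afdn (afadin) and Jam2, both junction proteins, had log2 changes of 0.72 ± 0.31 and 0.73 ± 0.33. Most of these genes are also expressed outside vessels, so they are less specific than Cdh5 and Cldn5.

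Among 20 other barrier transporters, 16 had a positive log2 change for curcumin over diabetes, 15 for garlic over diabetes and 10 for diabetes over control, with medians of 0.50, 0.30 and -0.01, and 0 passed edgeR's adjusted p. Without both libraries that stood apart, the medians were 0.715, 0.491 and -0.297. Slc2a1, the glucose transporter GLUT1, averaged 148.9 ± 39.7 CPM in curcumin, 98.2 ± 40.0 CPM in garlic, 104.0 ± 45.4 CPM in diabetes and 82.0 ± 26.4 CPM in control libraries, and all groups compared with diabetes overlapped. Slc3a2, a partner of amino acid transporters, was at 126.1 CPM in curcumin, 96.8 CPM in garlic and 145.8 CPM in diabetes libraries, and thus lay on the other side of diabetes from Slco1a4. Lrp8, a lipoprotein receptor that neurons also carry, had a log2 change of 0.61 ± 0.34 for curcumin over diabetes. Slco1c1, a thyroid hormone transporter related to Slco1a4, averaged 36.5 ± 15.1 CPM in curcumin, 34.1 ± 11.6 CPM in garlic, 15.2 ± 7.74 CPM in diabetes and 20.0 ± 0.991 CPM in control libraries. Both treated groups were above diabetes without overlap for Slco1c1, and its adjusted p by edgeR was 0.132 with curcumin and 0.364 with garlic.

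Of 38 other genes of brain endothelial identity, 31 had a positive log2 change for curcumin over diabetes, 19 for garlic over diabetes and 29 for diabetes over control, with medians of 0.53, 0.09 and 0.28. Without both libraries that stood apart, the medians were 0.585, 0.35 and -0.021, so the sign for diabetes over control turned. Of these 38, only Tal1, a transcription factor of blood and endothelial cells that midbrain neurons also express, passed edgeR's adjusted p (0.0452), with curcumin over diabetes. Tal1 had 28, 556 and 12 counts in curcumin libraries and 0 in all diabetes libraries, at least 248.6-fold higher (floor of 3 counts over the group), and at least 24.8-fold without curcumin replicate 2, the library highest in midbrain genes, a list that also holds Tal1. Control libraries had 20 to 53 counts of Tal1. The 3 genes of the list with the highest level, which other brain cells also express, did not pass in any comparison. Bsg, a glycoprotein partner of lactate transporters, was at 622.0 CPM in curcumin, 510.6 CPM in garlic, 760.7 CPM in diabetes and 515.6 CPM in control libraries. Ets2, an ETS factor, had log2 changes of 0.29 ± 0.27 for curcumin and -0.03 ± 0.31 for garlic over diabetes, and Pltp, a phospholipid transfer protein, 0.42 ± 0.38 and -0.16 ± 0.44.

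Of 19 genes of Wnt signalling, 15 had a positive log2 change for curcumin over diabetes and 16 for garlic over diabetes, with medians of 0.51 and 0.37, and 0 passed. Without both libraries that stood apart, the medians were 0.335 and 0.426. Ctnnb1 (beta-catenin) averaged 344.2 CPM in curcumin, 279.6 CPM in garlic and 242.1 CPM in diabetes libraries, and Lrp6, a Wnt co-receptor, 49.9, 44.9 and 32.7 CPM in the same groups. Wnt7b, a ligand that neural cells supply to vessels, was at 29.2 CPM in curcumin, 35.4 CPM in garlic and 43.2 CPM in diabetes libraries. Wnt7b thus lay below diabetes in both treated groups, and Ctnnb1 and Lrp6 above it, with no call for any of them. In 15 arterial and venous endothelial genes the medians were 0.14 for curcumin and -0.01 for garlic over diabetes, with 0 calls, or 0.27 and 0.21 without both libraries. Nr2f2, a venous transcription factor that hypothalamic neurons also express, had a log2 change of -0.50 ± 0.51 for curcumin over diabetes, and Hey1, an arterial Notch target, 0.05 ± 0.27. Ackr1, a venular chemokine receptor, had 0.14 ± 0.29. Over 6 fenestrated endothelial genes the medians were -0.08 for curcumin and 0.01 for garlic over diabetes and -0.06 for diabetes over control, with 0 calls. Without both libraries that stood apart, they were 0.19, 0.20 and -0.29. Plvap, the diaphragm protein of fenestrated vessels, averaged 11.0 ± 9.73 CPM in curcumin, 12.6 ± 1.43 CPM in garlic, 14.8 ± 6.64 CPM in diabetes and 14.5 ± 3.71 CPM in control libraries. Igfbp5, Nrp2 and Plpp3, the most abundant of the 6 and not confined to vessels, had log2 changes of 0.16, 0.22 and 0.53 for curcumin over diabetes.

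**Figure D4:**
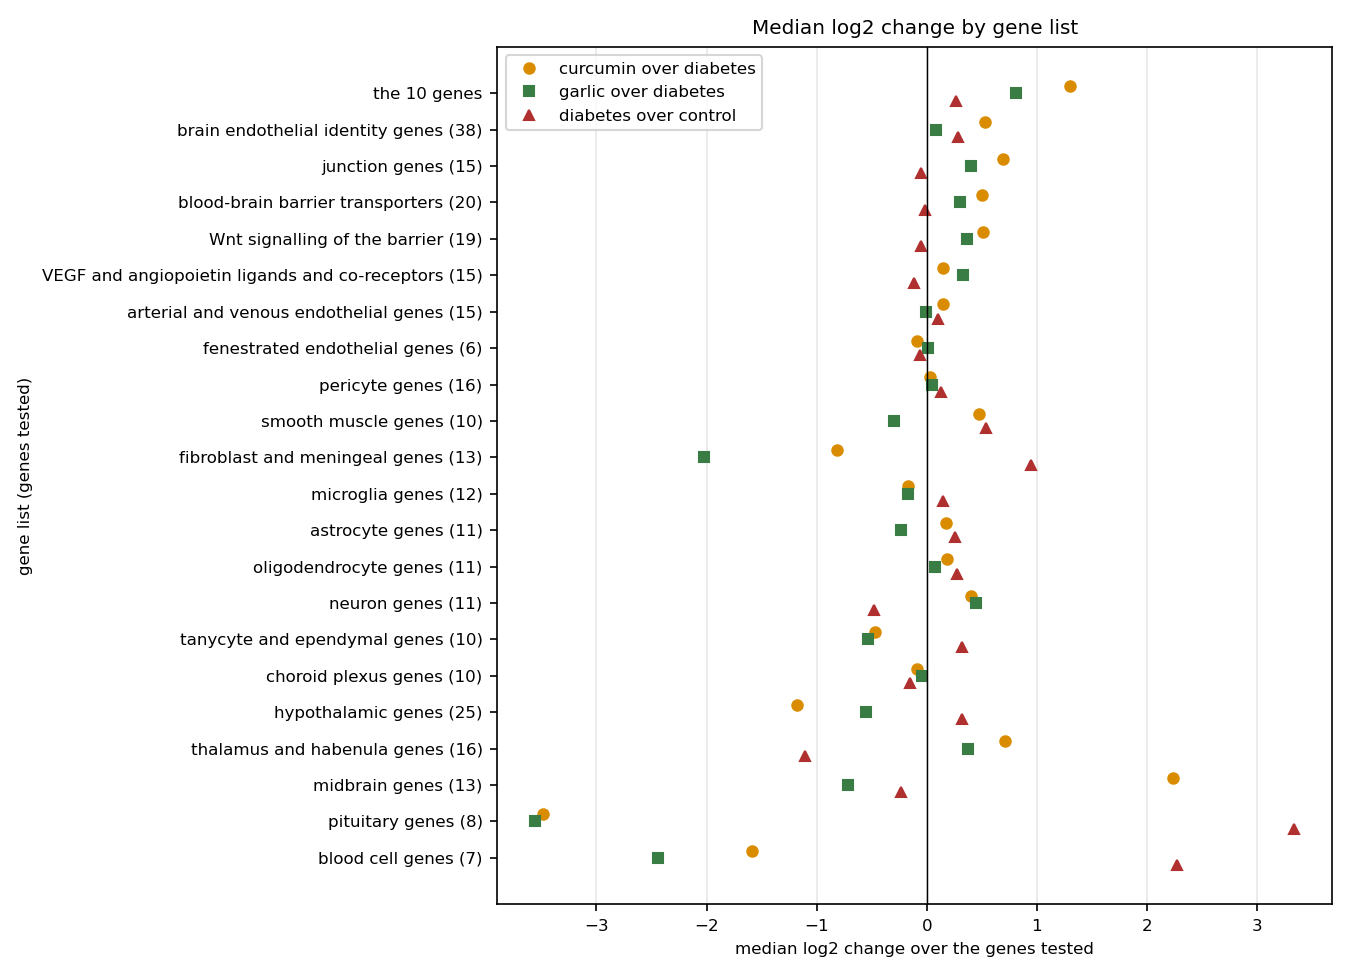
Median log2 change (horizontal axis) of the 10 genes and of 21 gene lists, with the number of genes tested in brackets, for curcumin over diabetes, garlic over diabetes and diabetes over control. The 10 genes lie at 1.30 for curcumin and 0.81 for garlic over diabetes, the midbrain list lies higher for curcumin (2.23), and the pituitary, blood cell and fibroblast lists lie farthest to the left for garlic (-3.56, -2.44 and -2.02).

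Lists of the cells around the vessels did not share one direction. Over 16 pericyte genes the median log2 change was 0.03 for curcumin and 0.05 for garlic over diabetes, and over 10 smooth muscle genes 0.47 and -0.30. Without both libraries that stood apart, these were -0.156 and 0.145 for pericyte genes and 0.349 and 0.809 for smooth muscle genes. With all libraries, the fibroblast and meningeal list gave -0.82 and -2.02, and 0.95 for diabetes over control, or -0.25, -1.06 and -0.11 without both. Its summed level ran from 88.3 to 135.2 CPM in curcumin, 60.3 to 61.1 CPM in garlic, 59.6 to 384.3 CPM in diabetes and 55.6 to 134.9 CPM in control libraries. The 11 neuron genes gave 0.40 for curcumin and 0.45 for garlic over diabetes and -0.48 for diabetes over control, or 0.11, 0.39 and -0.40 without both libraries. Their summed level was 3876 to 5552 CPM in curcumin, 4012 to 5046 CPM in garlic, 3341 to 3527 CPM in diabetes and 4201 to 4629 CPM in control libraries, so the neuron list's medians had the same sign as those of the 10 genes for the treated groups, and its part in their levels was not tested. Among the 38 endothelial identity genes, 7 were at 0 in diabetes replicate 3 (Erg, Robo4, Mmrn2, Clec14a, Cd93, Tal1 and She) and 5 in diabetes replicate 1 (Erg, Sox7, Mmrn2, Clec14a and Tal1). Those are the libraries where the 10 genes were lowest, and elsewhere at most 1 of the 38 was at 0. They also had the fewest genes detected at the lowest depth, 20133 in diabetes replicate 3 and 20474 in diabetes replicate 1. Diabetes replicate 4, with 20699 detected, had 1 of the 38 at 0. The share of all genes at 0 in each library is not printed.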

How the data were processed

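Bulk RNA of hypothalamus was profiled in 12 libraries. Trizol-extracted RNA with integrity numbers above 7 went into stranded poly-A libraries read as paired ends, per the labels' protocols. The authors deposited 1 table of raw counts per gene, and no column of it was left unused. FastQC, featureCounts and the GRCm39 genome are named per the submitters' processing notes. For the aligner, annotation, strand setting and multi-mapping reads, the choice is not given in the sources used here, so paralogs and overlapping genes such as Ackr1 are uncertain. GENCODE M21 and RefSeq tables on GRCm38 supplied symbols (65.7% of IDs, 97.8% of counts) and transcript lengths.

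Groups came from the sample titles. No library was counted as a repeat of another, since the counts of every pair differed with a chi-square of 20.0 or more per degree of freedom. Genes were filtered with filterByExpr by group (25562 kept) and scaled by TMM, and all 12 libraries were fitted together in R 4.3.3 with the quasi-likelihood test of edgeR 4.0.16 (glmQLFit, glmQLFTest). Benjamini-Hochberg adjustment ran over all genes with a threshold of 0.05, for 5 comparisons. The biological coefficient of variation was 0.808, so only large changes could pass. P-values set the difference between groups against the spread between libraries, which may be partly technical. Alternatives used DESeq2 1.42.0, limma 3.58.1 (voom with library weights), other scaling and filters, a replicate block, covariates and left-out libraries. The code was tested on simulated counts. In some lists 1 to 3 genes were at 0 in a whole group, and setting them to a bound of 3 counts over the group left every list median printed here as it was. A library's shared level is the mean over the 10 genes of the deviation of log2 CPM (prior count 2) from each gene's mean.

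The 10 genes and all gene lists were chosen with earlier results of these data known, and so support nothing by themselves. From each list, the genes that passed and up to 3 with the highest mean level were named, with the 10 genes most alike and paralogs. Slco1c1 and Plvap are named as a related transporter and as the defining marker of fenestrated vessels, after their values were seen. Same-numbered libraries deviated together with r from -0.179 to 0.252 over 15 pairs, so the numbers were not taken to pair them.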

Additional observations from a re-analysis of the deposited data

Results flagged for a closer look

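Among 33 groups of 4 diabetes libraries examined for 1 library far from the others (1 for each of the 10 genes and each list score), 2 were picked out, where chance gives about 1 in 20. The number picked out is near that rate, so nothing is read from it. For Abcb1a, the gap of diabetes replicate 4 (25.9 CPM) to the next library (6.48 CPM) made up 0.939 of the group's range, above Dixon's critical value of 0.829. The median deviation of the paralog list (which includes Abcb1b, Abcb4 and Slco1c1) was -0.44 in diabetes replicate 1 and -0.18 to -0.20 in the other 3, and that gap made up 0.911 of the range.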

How the results depend on the processing

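No other scaling (RLE), stricter filter, robust spread, fit of the compared groups alone, covariate for detected genes or length correction changed the number of the 10 genes called by edgeR, which was 0 in all 5 comparisons. For curcumin against diabetes the number was 4 with no filter (Flt1, Cldn5, Slco1a4 and Abcb1a), 3 with DESeq2 and 2 without the pair of libraries that stood apart, and 0 to 1 when 1 library was left out. For garlic against diabetes it was 2 with no filter and 2 with DESeq2 (Flt1 and Slco1a4), and 1 with limma-voom. For curcumin against control it was 1 with no filter (Cldn5). A replicate block, which the check of numbers did not call for, gave 2 calls for curcumin against diabetes (Flt1 and Abcb1a), 0 in the other comparisons, and a median of 1.70 for curcumin and -0.29 for diabetes over control. Except for DESeq2 and limma-voom, the share of all genes called by these alternatives is not printed, so nothing is read from their counts. The cause of these changes was not tested. Median log2 changes of the 10 genes stayed positive over all alternatives for curcumin over diabetes (1.11 to 1.70), garlic over diabetes (0.35 to 1.30), curcumin over control (0.98 to 1.65) and garlic over control (0.45 to 1.25), and ranged from -0.29 to 0.47 for diabetes over control. The sign of single genes turned in 3 of 180 gene and alternative pairs for curcumin over diabetes, all of them Cldn5, in 18 of 170 for garlic over diabetes, in 27 of 180 for diabetes over control, in 2 of 170 for curcumin over control and in 4 of 160 for garlic over control. With 2 to 4 libraries a group and this spread, small differences could not be detected.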
